A study of Homo sapiens with 12 samples.

Results

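The genes of ribosome biogenesis and of the nucleolus were followed in human kidney cells under a toxic treatment. The list named 55 genes by symbol, covering RNA polymerase I transcription, the small nucleolar RNA particles, small subunit (40S) maturation and large subunit (60S) assembly. A gene was measured where a probe set carried exactly that symbol in the platform annotation. This held for 48 of the 55, and all 48 passed the filter on low values and were among the 10729 genes tested, of 19775 genes with such a probe set. NOP56, DKC1, BOP1, PPAN, GNL3, DDX18 and EBNA1BP2 had no probe set with that symbol alone and were not analysed here.

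The cells were HK-2, an immortalized line of human renal proximal tubular epithelial cells, and the study looked for expression signatures of toxicity. Ota cells were exposed to Ota at what is labelled a high dose, for 24 h or for 72 h, and control cells to the vehicle alone for the same times. What Ota stands for, and how much was given, is not stated. Each of the 4 groups held 3 Affymetrix arrays, called biological replicates in the labels, and p-values measure only the spread between these samples. Values are log2 GCRMA expression values as deposited, so that a difference of 1 is a 2-fold difference, and each probe set has its own scale. A gene was called higher or lower where its adjusted p (limma, Benjamini-Hochberg over the 10729 genes) was under 0.05.

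Ribosomes are built in the nucleolus. RNA polymerase I transcribes a long ribosomal RNA precursor, small nucleolar ribonucleoprotein particles guide its chemical modification, and the small subunit processome and the 60S assembly factors fold and cut it while ribosomal proteins join. The pathway is among the most active in growing cells. Nucleolar structure is known to respond to many toxic compounds.

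Arrays of 1 group correlated with each other at 0.954 to 0.994, and no pair of arrays was identical. Several array-wide measures differed between Ota and control arrays. Poly-A spike-ins, bacterial transcripts that the standard protocol adds to the RNA, had log2 means higher by 1.85 in Ota cells than in controls at 24 h, and higher by 0.89 at 72 h. Hybridization controls, which are added after labelling, were higher by 0.93 at 24 h and 0.42 at 72 h. The 18S ribosomal RNA signal was higher by 1.58 at 24 h and 1.34 at 72 h, and the median of the tested genes was 7.40 ± 0.16 on Ota arrays and 7.97 ± 0.05 on control arrays at 24 h (SD, n = 3 each). In each of these comparisons the 3 Ota arrays lay apart from the 3 control arrays (p = 0.1 by a two-sided exact permutation test, which cannot give less for 3 against 3). The difference between the 3' and the 5' probe set of ACTB, a sign of RNA integrity, was 1.97 ± 0.33 on Ota arrays and 1.39 ± 0.15 on control arrays at 72 h (SD, n = 3 each), with an exact permutation p of 0.1. At 24 h the same measure was 0.046 higher on the Ota arrays (exact permutation p = 0.9). For GAPDH the same measure was 0.031 higher on the Ota arrays at 24 h (exact permutation p = 0.3) and 0.033 higher at 72 h (exact permutation p = 0.7). Of 20 proximal tubule markers 5 were measured above the filter, and defining ones such as CUBN, LRP2 and AQP1 were not. Their summed level (log2) was 11.81 to 12.12 on Ota arrays and 12.93 to 13.01 on control arrays at 24 h, and 11.07 to 11.86 on Ota arrays and 13.22 to 13.32 on control arrays at 72 h. All 6 epithelial markers were measured, with summed levels of 13.69 to 14.03 on Ota arrays and 14.17 to 14.38 on control arrays at 24 h, and 13.96 to 14.26 on Ota arrays and 14.40 to 14.46 on control arrays at 72 h. KRT18 and KRT19 at each time, and CDH1 and CDH2 at 72 h, were lower on every Ota array than on any control array. CDH2 at 24 h and KRT8 at 72 h were higher in the same way, and EPCAM overlapped at both times. Of 8 markers of the distal tubule and collecting duct 2 were measured. Their summed level was also lower on the Ota arrays, at 8.80 to 8.98 against 9.20 to 9.61 on control arrays at 24 h. The sum at 72 h was 8.33 to 9.25 on Ota arrays and 9.31 to 9.65 on control arrays. These 2 markers moved in opposite directions. AQP3 was higher on every Ota array than on any control array at each time, and SCNN1A was lower. Of the endothelial and leukocyte markers 0 of 6 each were measured. Of the 6 fibroblast and the 6 podocyte markers 3 each were measured, with summed levels of 10.25 to 11.24 and 11.62 to 11.84 on Ota arrays, against 9.75 to 10.29 and 10.72 to 11.52 on control arrays, at 72 h, and with overlapping groups at 24 h. Nearly all of the podocyte sum was PTPRO. The part of these array-wide and marker differences in the results on single genes was not tested.

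On the deposited scale more of these genes were lower than higher in Ota cells at 24 h, and most were higher at 72 h. At 24 h 19 of the 48 were lower and 8 higher, beside 40.5% lower and 20.8% higher among all 10729 genes. The median log2 difference of the 48 was -0.27 at 24 h, beside -0.24 over all genes, with a range of -3.87 to 2.36. At 72 h 28 were higher and 3 lower, beside 24.8% higher and 35.2% lower among all genes. The median at 72 h was 0.61, beside -0.11 over all genes, with a range of -1.72 to 3.04. At 24 h the shares were thus near those over all genes, and at 72 h 58.3% of the members were higher. In values of a whole culture, fewer cells and less RNA per cell cannot be told apart. The direction within a time depended on how the arrays were scaled. With each array centred on the median of its tested genes, 20 members (41.7%) were higher and 11 (22.9%) lower at 24 h. Among all genes 43.4% were higher and 26.7% lower on that scale, so the members were near those shares. The centred counts at 72 h were 34 (70.8%) higher and 3 (6.25%) lower, beside 35.5% and 27.8% of all genes. With each array scaled to its poly-A spike-ins, 0 were higher and 44 lower at 24 h, beside 1.42% and 93.5% of all genes, and 2 and 10 at 72 h, beside 5.17% and 62.6%. Quantile normalization gave 12 higher and 17 lower at 24 h, beside 28.4% and 34.7% of all genes, and 31 and 3 at 72 h, beside 26.9% and 33.7%. Relative to the median of all genes the members' median was 0.73 at 72 h and -0.03 at 24 h on the deposited scale. Centring and spike-in scaling move all genes of an array alike, so they cannot change these relative medians. After quantile normalization the relative medians were 0.70 at 72 h and -0.20 at 24 h.

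**Figure D1:**
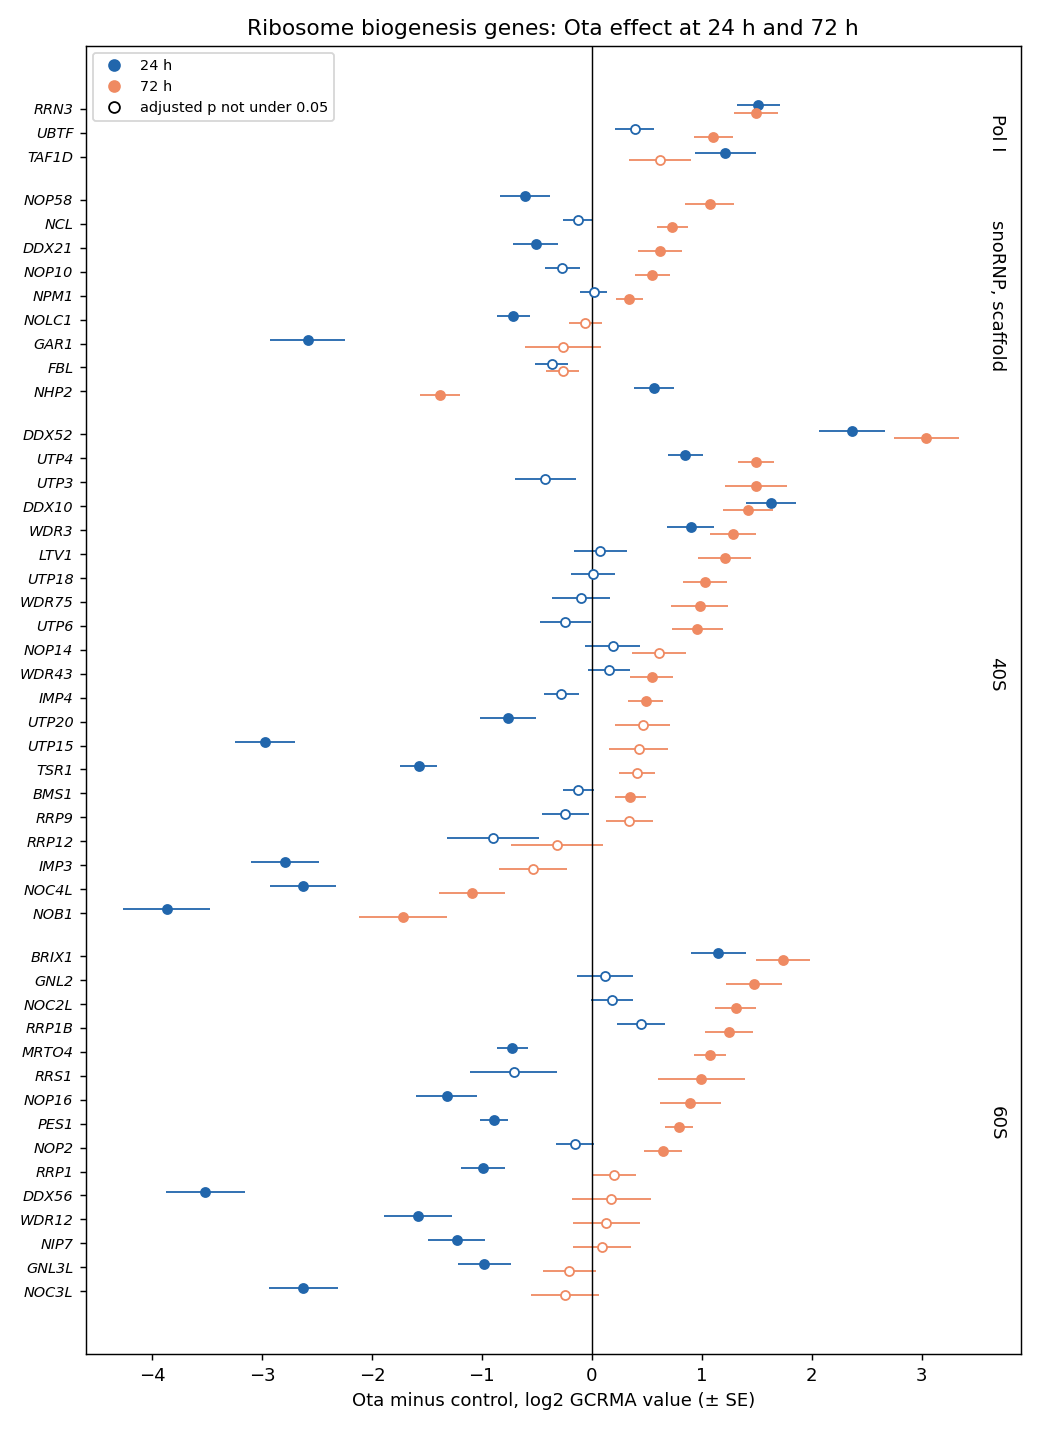
Log2 difference between Ota and control (x axis, ± SE of the model) for each of the 48 measured genes (rows, grouped by role) at 24 h and at 72 h, with open points where the adjusted p was not under 0.05. On the deposited scale the 72 h points lie to the right of the 24 h points for most genes. NHP2, TAF1D, DDX10 and RRN3 are in the opposite order, with changes of -1.95, -0.60, -0.21 and -0.02, of which only that of NHP2 was called. Scaled to spike-ins, most points at both times would lie below 0.

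The calls at each time were then set side by side. The 24 h and 72 h differences come from different arrays. The calls at each time rest on a spread estimated over all 12 arrays, so they are not independent of each other. RRN3, UTP4, WDR3, DDX10, DDX52 and BRIX1 were higher at both times, 12.5% of the 48 beside 11% of all genes. NOP58, DDX21, NOP16, PES1 and MRTO4 were lower at 24 h and higher at 72 h, 10.4% beside 3.64% of all genes. These calls are on the deposited scale. With each array centred on its median, NOP58 had -0.05 (limma adjusted p = 0.828) and DDX21 0.05 (adjusted p = 0.794) at 24 h, neither called. A further 17 members were not called at 24 h and were higher at 72 h, 35.4% beside 10.2%. Lower at 24 h and not called at 72 h were 12 members, 25% beside 15.2%. NOC4L and NOB1 were lower at both times, 4.17% beside 21.6% of all genes. NHP2 was higher at 24 h and lower at 72 h, and TAF1D was higher at 24 h and not called at 72 h. FBL, NOP14, RRP9 and RRP12 were called at neither time.

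The promoters of 42 of the 48 genes matched the RefSeq table (build GRCh38.p14), as 48 windows from 250 bases before to 50 bases after a gene's start. The E-box CACGTG, a motif that MYC and related factors are known to bind, was searched on both strands. It was in 17 of the 48 windows, or 35.4%, beside 9.73% of 13000 windows of tested genes and 7.25% of all 35097 windows. Of the 17 genes with the motif 11 were higher and 0 lower at 72 h, with a median of 0.61. Of the 25 matched genes without it 13 were higher and 3 lower, with a median of 0.43. At 24 h 1 of the 17 was higher and 6 were lower, and 6 and 11 of the 25. Among all genes 24.8% were higher and 35.2% lower at 72 h, and 20.8% and 40.5% at 24 h. The change of the Ota effect from 24 to 72 h was higher for 13 and lower for 0 of the 17, with a median of 1.01. Of the 25 without the motif 16 were higher and 1 lower in the change, with a median of 1.12, beside 29.6% and 19.9% of all genes. The letters CCGGAAG, a core of ETS factor sites, were in 43.8% of the members' windows and 17.5% of those of tested genes. The letters TCGCGAGA were in 10.4% and 2.25%, and AAGATGGC, a core of YY1 sites, in 6.2% and 5.02%. No motif is contained in another, and a match is a description of the sequence only. The following 200 bases before the start, with E-boxes in capitals, are shown for 4 genes that hold the motif and had different patterns of calls, and they were chosen after the values were seen. DDX21 (chr10:68956447-68956646, plus strand) was lower and then higher, NOP10 (chr15:34343137-34343336, minus strand, with 2 E-boxes) not called and then higher, UTP20 (chr12:101279905-101280104, plus strand) lower and then not called, and UTP4 (chr16:69132449-69132648, plus strand) higher at both times.
DDX21: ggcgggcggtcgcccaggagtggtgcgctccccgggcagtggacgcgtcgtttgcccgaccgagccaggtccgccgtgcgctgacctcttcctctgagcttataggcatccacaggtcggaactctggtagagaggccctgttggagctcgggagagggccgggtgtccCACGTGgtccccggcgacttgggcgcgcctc
NOP10: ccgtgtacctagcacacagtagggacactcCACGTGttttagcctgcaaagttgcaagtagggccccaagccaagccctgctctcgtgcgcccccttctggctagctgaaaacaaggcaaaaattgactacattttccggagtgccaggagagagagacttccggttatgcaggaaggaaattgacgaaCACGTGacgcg
UTP20: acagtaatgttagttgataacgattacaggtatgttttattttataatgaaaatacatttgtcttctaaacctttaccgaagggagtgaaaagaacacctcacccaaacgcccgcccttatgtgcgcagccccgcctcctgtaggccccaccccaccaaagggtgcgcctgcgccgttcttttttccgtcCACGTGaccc
UTP4: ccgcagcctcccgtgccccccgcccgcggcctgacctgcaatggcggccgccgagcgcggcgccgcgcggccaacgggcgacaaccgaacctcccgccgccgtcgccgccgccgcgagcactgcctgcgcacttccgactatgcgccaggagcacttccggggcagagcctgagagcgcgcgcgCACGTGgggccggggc

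The 3 measured genes of polymerase I transcription were higher or not called. RRN3, which joins the polymerase to the factors on the ribosomal DNA promoter, had log2 values of 9.01, 8.49 and 9.05 on Ota arrays, against 7.35, 7.01 and 7.64 on control arrays, at 24 h. At 72 h it had 9.65, 9.46 and 9.38 on Ota arrays, against 8.03, 8.13 and 7.85 on control arrays. All Ota arrays lay above all control arrays at each time. The difference was 1.52 ± 0.20 at 24 h (SE, limma adjusted p = 4.29e-05) and 1.5 ± 0.20 at 72 h (adjusted p = 4.78e-05), and on the spike-in scale it was -0.33 at 24 h. TAF1D, a subunit of the selectivity factor SL1, was higher at 24 h by 1.22 ± 0.28 (SE, adjusted p = 0.00257). At 72 h its difference was 0.62 ± 0.28 (SE, adjusted p = 0.0741). UBTF, which binds and opens the ribosomal DNA, had a difference of 0.39 ± 0.18 at 24 h (SE, adjusted p = 0.0759) and was higher at 72 h by 1.10 ± 0.18 (SE, adjusted p = 0.00021). This rests on 1 of its 4 probe sets above the filter. The other 3 were lower at 24 h, by differences of -0.81, -1.68 and -2.11, and had -0.70, -0.44 and -0.37 at 72 h, not called. With the mean over the probe sets the UBTF difference at 72 h was -0.10.

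Of the 9 measured genes of the small nucleolar RNA particles and the nucleolar scaffold, 4 (44.4%) were lower and 1 (11.1%) higher at 24 h. Among all genes 40.5% were lower and 20.8% higher at that time. The counts at 72 h were 5 (55.6%) higher and 1 (11.1%) lower, beside 24.8% and 35.2% of all genes. The box H/ACA particle, which converts uridine to pseudouridine, was represented by GAR1, NHP2 and NOP10, and the calls of these core proteins differed at both times. GAR1 had log2 values of 7.81, 6.84 and 8.54 on Ota arrays, against 10.28, 10.19 and 10.47 on control arrays, at 24 h. At 72 h it had 10.38, 9.67 and 10.29 on Ota arrays, against 10.43, 10.21 and 10.49 on control arrays. The groups were apart at 24 h, where GAR1 was lower by a difference of -2.58 ± 0.34 (SE, adjusted p = 4.87e-05), and overlapped at 72 h, with -0.26 ± 0.34 (SE, adjusted p = 0.534). NHP2 had 12.06, 12.50 and 12.02 on Ota arrays, against 11.61, 11.64 and 11.64 on control arrays, at 24 h. At 72 h NHP2 had 9.75, 9.55 and 10.18 on Ota arrays, against 11.12, 11.19 and 11.31 on control arrays. All Ota arrays were thus above the controls at 24 h and below them at 72 h. The difference of NHP2 was 0.56 ± 0.18 at 24 h (SE, adjusted p = 0.0185) and -1.38 ± 0.18 at 72 h (SE, adjusted p = 4.65e-05). The 24 h call of NHP2 was lost without Ota replicate 2 of 24 h (0.41, adjusted p = 0.0604) and without control replicate 1 of 24 h (0.55, adjusted p = 0.0503), and on the spike-in scale its 24 h difference was -1.29. NHP2 has 1 probe set above the filter, of a kind that can match several transcripts. NOP10 was 11.32 ± 0.06 on Ota arrays and 11.59 ± 0.02 on control arrays at 24 h, not called. At 72 h it was higher, at 11.85 ± 0.31 on Ota arrays and 11.30 ± 0.13 on control arrays (SD, n = 3 each), a difference of 0.55 ± 0.16 (SE, adjusted p = 0.0101).

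In the box C/D particle, which methylates ribosomal RNA, the core protein NOP58 was 10.67 ± 0.46 on Ota arrays and 11.28 ± 0.33 on control arrays at 24 h, and 12.27 ± 0.12 on Ota arrays and 11.20 ± 0.02 on control arrays at 72 h (SD, n = 3 each). Its differences were -0.61 ± 0.23 (SE, adjusted p = 0.0348) and 1.07 ± 0.23 (SE, adjusted p = 0.00148). The 24 h call of NOP58 was lost without Ota replicate 2, where the difference was -0.36 (adjusted p = 0.124), without Ota replicate 1 (-0.65, adjusted p = 0.0583), and without control replicate 1 (-0.65, adjusted p = 0.059) or 3 (-0.42, adjusted p = 0.146). The call was also lost with each array centred on its median (-0.05, adjusted p = 0.828). FBL, the methyltransferase of that particle, had -0.37 ± 0.15 at 24 h (SE, adjusted p = 0.0556) and -0.26 ± 0.15 at 72 h (SE, adjusted p = 0.156). Equal replicate numbers were taken as pairing the arrays at 24 h. With the replicate number as a block over all 12 arrays FBL was called lower there (adjusted p = 0.0457). That block is shared with the 72 h arrays, which were not taken as paired, so it is not a model of the 24 h pairing alone. NOLC1, a phosphoprotein that accompanies these particles, was lower at 24 h by a difference of -0.71 ± 0.15 (SE, adjusted p = 0.00139) and had -0.06 ± 0.15 at 72 h. With each array centred on its median the 24 h difference of NOLC1 was -0.15, not called (adjusted p = 0.309). NCL and NPM1, abundant nucleolar proteins that bind RNA and histones, were not called at 24 h and were higher at 72 h. The NCL difference at 72 h was 0.73 ± 0.14 (SE, adjusted p = 0.000687). These calls are of the probe set used. A second NCL probe set, over the filter on Ota arrays alone, averaged 7.03 on Ota arrays and 2.58 on control arrays at 24 h, and 6.58 on Ota arrays and 2.90 on control arrays at 72 h, with controls near the median of the whole table (2.94). For NPM1 the 72 h difference was 0.34 ± 0.12 (SE, adjusted p = 0.0312). DDX21, a helicase of ribosomal RNA transcription and processing, had -0.51 ± 0.20 at 24 h (SE, adjusted p = 0.043) and 0.62 ± 0.20 at 72 h (SE, adjusted p = 0.0188). The 24 h call of DDX21 was lost when any 1 array was left out other than Ota replicate 3 of 24 h, and without Ota replicate 2 the difference was -0.26. Its 72 h call was lost without Ota replicate 1 (0.56, adjusted p = 0.0621) and without control replicate 1 (0.60, adjusted p = 0.0517) or 2 (0.59, adjusted p = 0.0544).

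Among the 21 genes of small subunit maturation 6 (28.6%) were lower and 4 (19%) higher at 24 h, beside 40.5% and 20.8% of all genes. The 24 h shares were thus not above those over all genes. The counts at 72 h were 12 (57.1%) higher and 2 (9.52%) lower, beside 24.8% and 35.2% of all genes. NOB1, the endonuclease that cuts the end of the 18S ribosomal RNA, fell furthest. It had log2 values of 5.88, 4.51 and 6.73 on Ota arrays, against 9.54, 9.65 and 9.54 on control arrays, at 24 h. At 72 h NOB1 had 9.00, 8.93 and 8.93 on Ota arrays, against 10.74, 10.74 and 10.53 on control arrays. The groups were apart at both times. NOB1 was lower by a difference of -3.87 ± 0.40 at 24 h (SE, adjusted p = 6.47e-06) and -1.72 ± 0.40 at 72 h (SE, adjusted p = 0.00276). NOC4L, a processome protein that pairs with NOP14, had 4.05, 4.13 and 4.04 on Ota arrays, against 7.08, 6.40 and 6.62 on control arrays, at 24 h. At 72 h NOC4L had 5.15, 4.63 and 6.09 on Ota arrays, against 6.45, 6.24 and 6.45 on control arrays. NOC4L was also lower at both times with groups apart, by -2.63 ± 0.30 (SE, adjusted p = 1.49e-05) and -1.09 ± 0.30 (SE, adjusted p = 0.00814). NOP14 itself had 0.19 ± 0.25 and 0.61 ± 0.25 (SE, adjusted p = 0.531 and 0.0519).

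UTP15, a subunit of the complex that binds the nascent precursor first, had 3.91, 4.37 and 4.92 on Ota arrays, against 7.32, 7.27 and 7.51 on control arrays, at 24 h. At 72 h UTP15 had 7.75, 7.07 and 7.99 on Ota arrays, against 6.98, 7.31 and 7.25 on control arrays. The groups were apart at 24 h, with a difference of -2.97 ± 0.27 (SE, adjusted p = 2.45e-06), and overlapped at 72 h, with 0.43 ± 0.27 (SE, adjusted p = 0.194). IMP3, which joins the U3 particle to the precursor, had 5.91, 4.71 and 6.22 on Ota arrays, against 8.51, 8.53 and 8.16 on control arrays, at 24 h. At 72 h IMP3 had 7.70, 7.45 and 7.80 on Ota arrays, against 8.37, 8.09 and 8.10 on control arrays. The Ota arrays of IMP3 lay below the controls at both times, but the test passed only at 24 h, with -2.79 ± 0.31 (SE, adjusted p = 1.19e-05) and -0.54 ± 0.31 at 72 h (SE, adjusted p = 0.158). IMP4, its partner in the same complex, was not called at 24 h (-0.28 ± 0.16) and was higher at 72 h (0.49 ± 0.16, SE, adjusted p = 0.0195). TSR1, a factor of late 40S maturation, and UTP20, a large scaffold, were lower at 24 h by -1.57 ± 0.17 and -0.76 ± 0.25 (SE) and not called at 72 h, where TSR1 had 0.41 ± 0.17 (SE, adjusted p = 0.0503).

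Other processome genes were higher at both times. DDX52, an RNA helicase, had 10.30, 9.51 and 10.38 on Ota arrays, against 7.81, 7.20 and 8.09 on control arrays, at 24 h. At 72 h DDX52 had 10.90, 10.47 and 11.003 on Ota arrays, against 7.96, 7.99 and 7.30 on control arrays. The groups were apart at both times, and the differences of 2.36 ± 0.30 (SE, adjusted p = 3.24e-05) and 3.04 ± 0.30 (SE, adjusted p = 4.62e-06) were the largest rises among the 48 at each time. On the spike-in scale DDX52 had 0.51 at 24 h, not called. UTP4, in the same complex as UTP15, had 11.16, 10.95 and 11.58 on Ota arrays, against 10.35, 10.28 and 10.50 on control arrays, at 24 h. At 72 h UTP4 had 11.996, 11.96 and 11.79 on Ota arrays, against 10.42, 10.46 and 10.38 on control arrays. UTP4 was thus above the controls on every Ota array, by 0.85 ± 0.16 (SE, adjusted p = 0.000762) and 1.5 ± 0.16 (SE, adjusted p = 1.04e-05), while on the spike-in scale its 24 h difference was -0.998. DDX10, another helicase, was higher by 1.63 ± 0.23 and 1.42 ± 0.23, and WDR3, a subunit of the UTP-B complex, by 0.90 ± 0.21 and 1.29 ± 0.21. A second WDR3 probe set was likewise over the filter on Ota arrays alone, and gives no usable size. On the spike-in scale DDX10 and WDR3 had -0.22 and -0.95 at 24 h.

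UTP3 had 9.35, 8.27 and 9.53 on Ota arrays, against 9.46, 9.21 and 9.75 on control arrays, at 24 h, where the groups overlapped. At 72 h UTP3 had 10.86, 10.67 and 10.63 on Ota arrays, against 9.22, 9.10 and 9.37 on control arrays, which lay apart. The differences of UTP3, a processome protein, were -0.42 ± 0.28 (SE, adjusted p = 0.206) and 1.49 ± 0.28 (SE, adjusted p = 0.000614). LTV1 and UTP18 (a 40S assembly factor and a UTP-B subunit), UTP6, WDR43, WDR75 and BMS1 showed the same pair of calls, not called at 24 h and higher at 72 h. Of these, BMS1 lay next to the threshold, with 0.35 ± 0.14 at 72 h (SE, adjusted p = 0.0498).

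**Figure D2:**
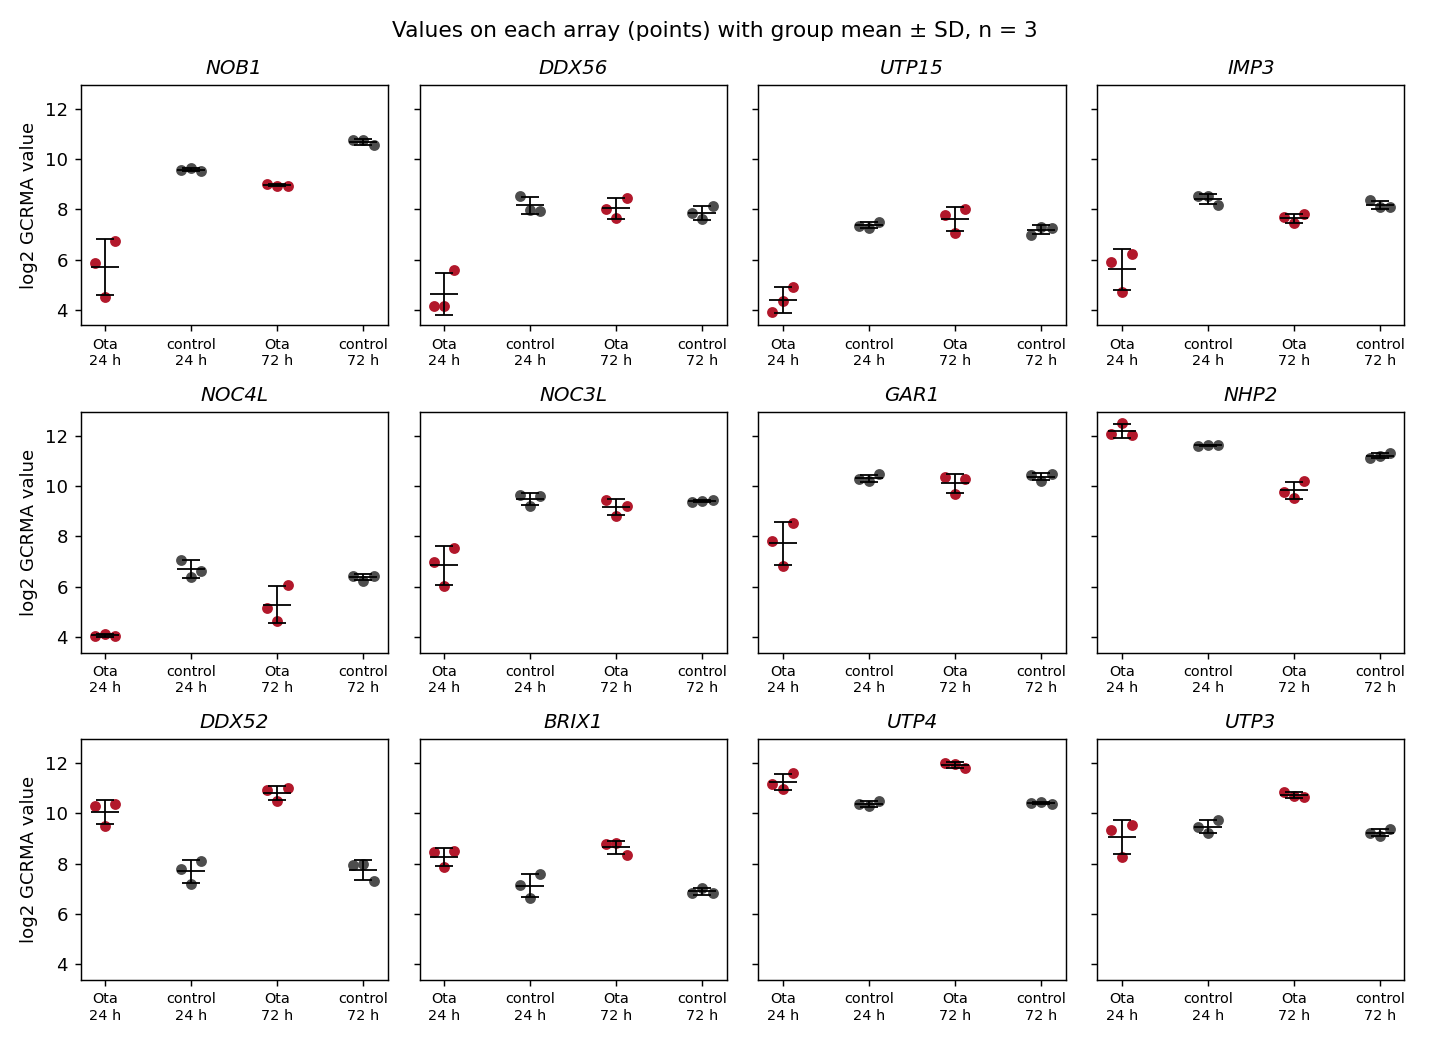
Log2 GCRMA values on each array (points) with the mean and SD of the 3 arrays of a group, for 12 genes, at 24 h and 72 h with Ota left of control. NOB1 and NOC4L lie below the controls at both times, DDX56, UTP15, NOC3L and GAR1 at 24 h only, and DDX52, BRIX1 and UTP4 lie above the controls at both times, all on the deposited scale.

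The 15 measured genes of 60S assembly had 9 (60%) lower and 1 (6.67%) higher at 24 h, beside 40.5% and 20.8% of all genes. The counts at 72 h were 9 (60%) higher and 0 lower, beside 24.8% and 35.2% of all genes. Their median difference was -0.89 at 24 h and 0.79 at 72 h, beside -0.24 and -0.11 over all genes. DDX56, a helicase of late nucleolar 60S particles, had 4.16, 4.18 and 5.58 on Ota arrays, against 8.54, 7.98 and 7.95 on control arrays, at 24 h. At 72 h DDX56 had 8.02, 7.64 and 8.46 on Ota arrays, against 7.85, 7.60 and 8.14 on control arrays. The groups were apart at 24 h and interleaved at 72 h, with differences of -3.52 ± 0.36 (SE, adjusted p = 6.01e-06) and 0.18 ± 0.36 (SE, adjusted p = 0.697). NOC3L, which in yeast works in both ribosome assembly and DNA replication, had 7.00, 6.02 and 7.54 on Ota arrays, against 9.63, 9.22 and 9.59 on control arrays, at 24 h. At 72 h NOC3L had 9.46, 8.83 and 9.22 on Ota arrays, against 9.36, 9.43 and 9.45 on control arrays. NOC3L was also lower at 24 h, by -2.62 ± 0.31 (SE, adjusted p = 2.02e-05), and not called at 72 h, with -0.24 ± 0.31 (SE, adjusted p = 0.526). BRIX1, an early factor of the particle that holds 5S ribosomal RNA, had 8.44, 7.87 and 8.52 on Ota arrays, against 7.14, 6.66 and 7.58 on control arrays, at 24 h. At 72 h BRIX1 had 8.79, 8.80 and 8.34 on Ota arrays, against 6.82, 7.04 and 6.83 on control arrays. BRIX1 was the only one of the 15 called higher at 24 h, by 1.15 ± 0.25 (SE, adjusted p = 0.00161), and was higher at 72 h by 1.74 ± 0.25 (SE, adjusted p = 7.86e-05), while on the spike-in scale it had -0.70 at 24 h.

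PES1 and WDR12 belong to the PeBoW complex, which is needed for cutting the 60S precursor. PES1 was 7.94 ± 0.05 on Ota arrays and 8.83 ± 0.12 on control arrays at 24 h, and 9.83 ± 0.12 on Ota arrays and 9.04 ± 0.11 on control arrays at 72 h (SD, n = 3 each). Its differences were -0.89 ± 0.13 (SE, adjusted p = 0.000102) and 0.79 ± 0.13 (SE, adjusted p = 0.000244). WDR12 was lower at 24 h, by -1.58 ± 0.31 (SE, adjusted p = 0.000842), and had 0.13 ± 0.31 at 72 h. NOP16 was lower at 24 h by -1.32 ± 0.27 and higher at 72 h by 0.90 ± 0.27 (SE, adjusted p = 0.00135 and 0.0141), and where shared probe sets were left out its 24 h difference was -1.07 (adjusted p = 0.0689). MRTO4, which holds the place of the stalk protein on the young 60S particle, was lower at 24 h by -0.72 ± 0.14 and higher at 72 h by 1.07 ± 0.14 (SE, adjusted p = 0.000973 and 4.96e-05). RRP1, GNL3L and NIP7 were lower at 24 h and not called at 72 h. NOP2, a ribosomal RNA methyltransferase, RRS1, RRP1B, NOC2L and the GTPase GNL2 were not called at 24 h and higher at 72 h. The largest of these 72 h differences were 1.47 ± 0.25 for GNL2, 1.31 ± 0.19 for NOC2L and 1.25 ± 0.22 for RRP1B (SE, adjusted p = 0.000344, 8.68e-05 and 0.000349).

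The change of the Ota effect between the times, which is the 72 h difference minus the 24 h difference, was tested in the same model. It was higher for 33 of the 48 members and lower for 1, beside 29.6% higher and 19.9% lower among all genes, with a median of 1.05 beside 0.17 over all genes. Quantile normalization gave 30 higher and 2 lower, beside 26.1% and 23.4% of all genes, and centring 26 and 2, beside 23.5% and 26.6%. On the spike-in scale, which adds 0.96 to the change of each gene, there were 43 and 0, beside 55.1% and 4.88%. The members' median relative to that of all genes was 0.88 on the deposited scale and 0.88 after quantile normalization. Centring and spike-in scaling cannot change it, since they move all genes of an array alike. Without Ota replicate 2 of 24 h 31 were higher and 2 lower. The shares by role were 13 of 15 higher in 60S assembly, 13 of 21 in small subunit maturation, 6 of 9 in the small nucleolar particles and scaffold, and 1 of 3 in polymerase I transcription. DDX56 had the largest change, of 3.69 ± 0.51 (SE, adjusted p = 0.000161). The next were UTP15 with 3.40 ± 0.38 (SE, adjusted p = 4.44e-05), NOC3L with 2.38 ± 0.44 (SE, adjusted p = 0.00108), GAR1 with 2.32 ± 0.49 (SE, adjusted p = 0.0023) and IMP3 with 2.25 ± 0.44 (SE, adjusted p = 0.0015). NHP2 was the 1 member called lower in the change, with -1.95 ± 0.26 (SE, adjusted p = 0.000129), and on the spike-in scale this was -0.98 (adjusted p = 0.0624). The change was not called, on the probe set used, for RRN3, TAF1D, FBL, NPM1, NOP14, WDR43, WDR3, RRP9, BMS1, DDX10, DDX52, RRP12, BRIX1 and GNL3L. All members higher at both times other than UTP4, whose change was 0.65 ± 0.23 (SE, adjusted p = 0.0363), are among these. Other probe sets of some of them were called in the change. DDX52 had 1.63 and 1.33, both higher (adjusted p = 0.00182 and 0.0353). RRP12 had 3.22, higher (adjusted p = 2.75e-05), from a mean of 3.01 on Ota arrays at 24 h, and -0.42, not called. NPM1 had -0.78, lower (adjusted p = 0.0149), and 0.24, not called.

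**Figure D3:**
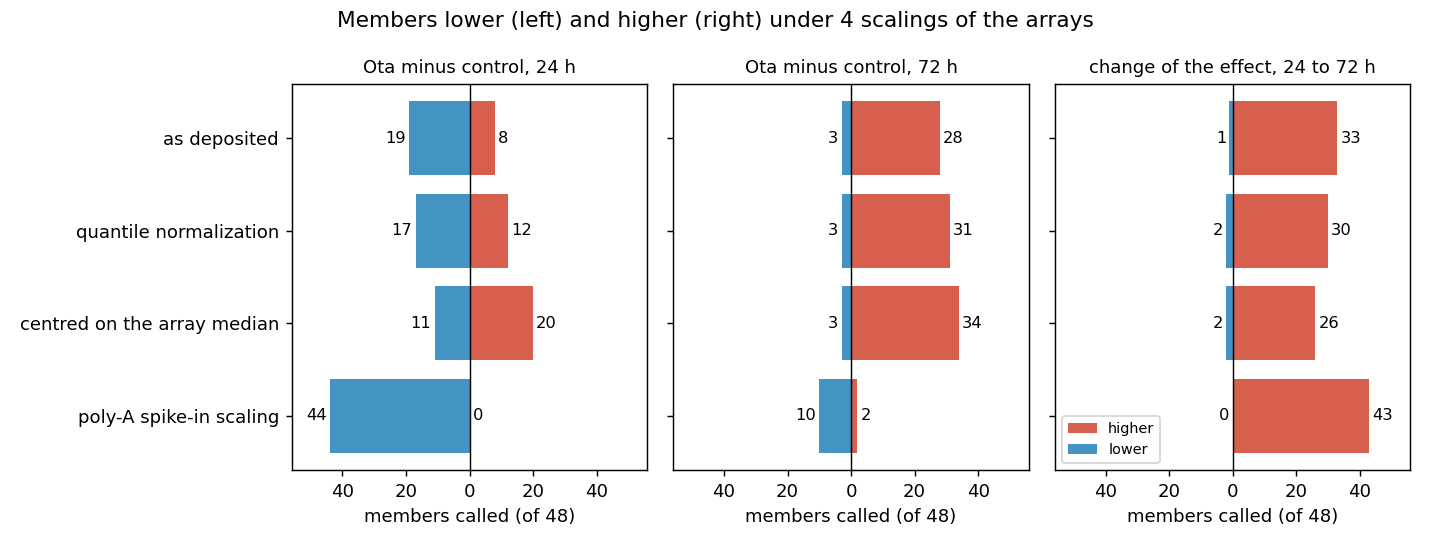
Number of the 48 members called lower (left of 0) and higher (right of 0) under 4 scalings of the arrays, in the Ota comparison at each time and in the change of the effect. The 24 h and 72 h counts turn with the spike-in scaling (0 higher and 44 lower, and 2 higher and 10 lower), and the change of the effect was called higher for 26 to 43 members, with 55.1% of all genes called higher on the spike-in scale.

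Within Ota cells, 38 of the 48 were higher at 72 h than at 24 h and 1 was lower, beside 37% higher and 23.3% lower among all genes. The largest rises were 3.40 for DDX56, 3.24 for NOB1, 3.21 for UTP15, 2.38 for GAR1 and 2.31 for NOC3L, and NHP2 was lower, with -2.37. Within control cells 1 member was higher at 72 h than at 24 h and 1 lower, beside 12.2% higher and 13.3% lower among all genes, with a median of -0.08. These were RRN3, with 0.67 ± 0.20 (SE, adjusted p = 0.0281), and TSR1, with -0.53 ± 0.17 (SE, adjusted p = 0.0355). Both calls sat near the threshold. RRN3 was not called without control replicate 1 or 2 of 24 h (adjusted p = 0.0731 and 0.112) or control replicate 1 or 2 of 72 h (adjusted p = 0.0825 and 0.098). TSR1 was not called without control replicate 1 or 2 of 24 h (adjusted p = 0.13 and 0.0858), without any 1 of the 3 control arrays of 72 h (adjusted p = 0.0688 to 0.119) or without Ota replicate 1 of 72 h (adjusted p = 0.0511). Without Ota replicate 2 of 24 h, an array that enters this comparison only through the shared spread, 5 members were higher and 4 lower in control cells at 72 h, and without Ota replicate 3 of 24 h 2 and 2. The spread between arrays was not equal in the groups. The median SD of the members was 0.46 on the Ota arrays and 0.14 on the control arrays at 24 h, and 0.19 on the Ota arrays and 0.12 on the control arrays at 72 h. Replicate 2 was the lowest of its group for 35 of the 48 members on Ota arrays and 27 on control arrays at 24 h, and for 34 on Ota arrays and 22 on control arrays at 72 h.

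Some of these genes had probe sets that moved in opposite directions. Of the 19 members with more than 1 probe set above the filter, all probe sets had the same sign for 10 at 24 h, 12 at 72 h and 11 in the change of the effect. At 24 h, 7 members had probe sets called both higher and lower. For DDX52 2 probe sets had 2.36 and 1.63 and the third -1.80. For DDX56 the probe set used had -3.52 and the other 1.74. TSR1 had -1.57 and -1.32 on 2 probe sets and 0.98 on each of the other 2. WDR12 had -1.58 on the probe set used, and 1.71 and 0.61 on the others. RRP12, which is known for exporting the young 40S particle, had -0.90 on the probe set used, not called, and 0.57 and -3.10 on the others. DDX21 had -0.51 and 0.53, and RRP1, a nucleolar 60S factor, -0.99 and 0.48. At 72 h NPM1 had 1 probe set called higher, with 0.34, and 1 called lower, with -0.45. The level of a whole transcript and of the parts or isoforms that single probe sets match cannot be told apart in these values. GAR1, IMP3, NHP2, NOB1 and NOC3L had 1 probe set above the filter each, and the other probe set of UTP15 had -0.48 at 24 h, not called.

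**Figure D4:**
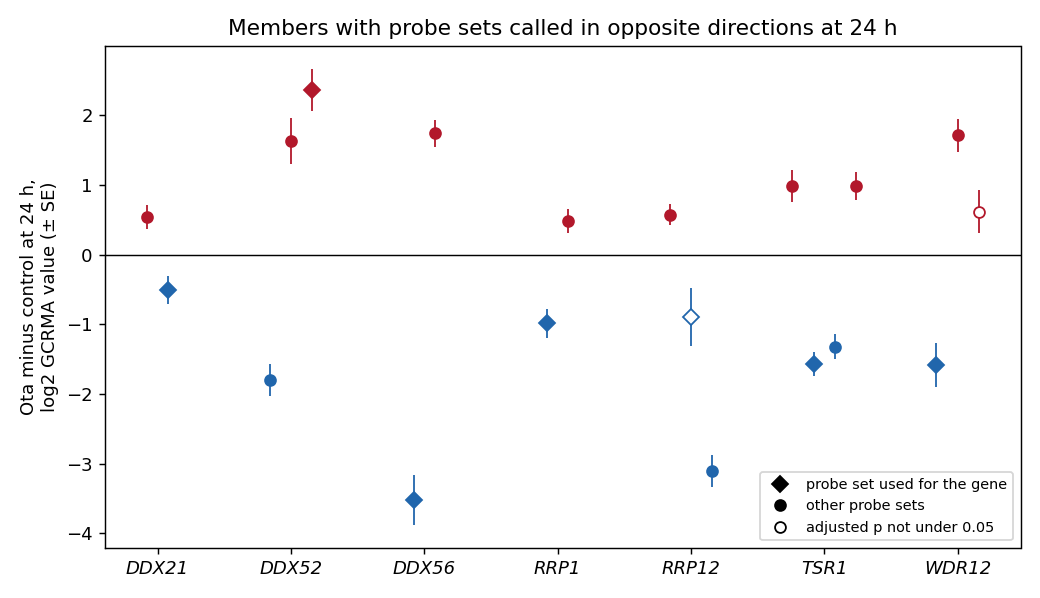
Log2 difference between Ota and control at 24 h (y axis, ± SE) for each probe set above the filter of 7 genes whose probe sets were called in opposite directions, with diamonds for the probe set used for the gene and open symbols where the adjusted p was not under 0.05. DDX56 spans -3.52 to 1.74 and DDX52 -1.80 to 2.36.

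Of 111 other genes of the same pathway 107 were tested. At 24 h 18 (16.8%) were higher and 59 (55.1%) lower, with a median of -0.88, beside 20.8% and 40.5% of all genes. At 72 h 40 (37.4%) were higher and 31 (29%) lower, with a median of 0.26, beside 24.8% and 35.2%. The change of the effect was higher for 50 (46.7%) and lower for 3 (2.8%), beside 29.6% and 19.9%. Of 14 further genes of polymerase I transcription 7 (50%) were lower and 1 higher at 24 h, and 3 each (21.4%) at 72 h, the 24 h share of falls lying near that of all genes. The polymerase subunit POLR1C was lower at 24 h by -3.19 and not called at 72 h (-0.08), and the subunit POLR1H was lower at both times, by -2.76 and -1.70. TCOF1, which supports ribosomal RNA synthesis, was not called at 24 h and was higher at 72 h by 2.83 ± 0.23 (SE). MYC, a transcription factor known to drive many ribosome biogenesis genes, was lower at both times on the deposited scale. Its log2 values were 10.80, 10.73 and 10.92 on Ota arrays, against 11.63, 11.41 and 11.33 on control arrays, at 24 h. At 72 h MYC had 10.84, 10.64 and 11.06 on Ota arrays, against 11.90, 11.42 and 11.66 on control arrays. The groups were apart at both times, with differences of -0.64 ± 0.17 (SE, adjusted p = 0.00571) and -0.82 ± 0.17 (SE, adjusted p = 0.00111). MYC and the other pathway genes are given on the deposited scale only. Centring would add 0.56 to each of their differences at 24 h and 0.28 at 72 h. At 24 h this is nearly the whole of the MYC difference of -0.64, so the MYC fall at that time depends on the scale. At 72 h the size of the MYC fall depends on it.

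Among 32 further genes of the small subunit 17 (53.1%) were lower and 9 (28.1%) higher at 24 h, and 7 (21.9%) lower and 16 (50%) higher at 72 h. The shares over all genes, for this list and those below, were 40.5% lower and 20.8% higher at 24 h. At 72 h they were 35.2% lower and 24.8% higher. The methyltransferase EMG1 was lower at both times, by -4.67 ± 0.35 and -3.38 ± 0.35 (SE), and the acetyltransferase NAT10 by -4.21 ± 0.15 and -1.74 ± 0.15 (SE). NAT10 had 3.38, 3.03 and 3.22 on the Ota arrays at 24 h, under the filter limit of 4, so the size of that fall is uncertain. UTP25 was higher at both times, by 3.44 ± 0.25 and 2.71 ± 0.25 (SE), and WDR46 was lower by -1.39 ± 0.39 and -4.09 ± 0.39 (SE). Among 38 further genes of the large subunit 20 (52.6%) were lower and 6 higher at 24 h, and 8 (21.1%) lower and 15 (39.5%) higher at 72 h. FTSJ3 was lower by -3.46 and -2.68, and MAK16 was higher by 1.40 and 1.86. Of 10 further genes of the small nucleolar particles 5 (50%) were lower and 2 (20%) higher at 24 h, and 4 (40%) lower and 3 (30%) higher at 72 h, near the shares of all genes. RUVBL2, which helps assemble these particles, was lower by -1.23 and -2.34. In the RNA exosome, which trims the precursors, 10 of 13 genes (76.9%) were lower and 0 higher at 24 h, and 9 (69.2%) lower and 3 (23.1%) higher at 72 h. Its subunit EXOSC6 was lower by -4.13 ± 0.47 and -3.17 ± 0.47 (SE), and the nuclease DIS3 was higher at 72 h by 1.43.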

How the data were processed

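RNA of HK-2 cells was measured on 12 Affymetrix arrays, 3 in each of 4 groups taken from the labels. The authors deposited 1 log2 value per probe set and array, computed with GCRMA. The tool is named, without its version, per the submitters' processing notes; the arrays normalized together, later filters and a genome build are not given in the sources used here. The table held 54675 probe sets, of which 41097 had 1 symbol, 1801 several and 11777 none, and 0 columns belonged to other samples. Symbols are those of the platform annotation.

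Probe sets with 1 symbol entered if they exceeded 4 (log2) on 3 or more arrays. The one with the highest mean over the 12 arrays stood for its gene. A model of 4 group means was fitted to all 10729 genes with limma 3.58.1 in R 4.3.3 (two-sided, Benjamini-Hochberg over all genes, threshold 0.05). Residual degrees of freedom were 8, prior ones 3.56, and the median SE of a log2 difference at 24 h was 0.21. The number of arrays limits the precision. Array-wide measures, among them the means over 24 probe sets for poly-A spike-ins, 3 for 18S RNA and 18 for hybridization controls, were compared by an exact permutation test over the 20 splits of 3 against 3 arrays. The fit was tested on simulated data.

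The members and lists were chosen with earlier results of these data known. Members were named by role, up to 4 rises and 4 falls past the threshold at each time, the 5 largest in the other comparisons, and all whose probe sets were called in opposite directions. Values on each array are given for the 6 largest differences at each time and the 4 largest changes, with NHP2 and MYC added after their values were seen. Of other pathway genes those named are among the 2 largest per list and direction. A gene named for one time is given at both where it was called at both. UBTF's other probe sets were added after their values were seen.

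Deviations from group means of Ota and control arrays of equal replicate number correlated at 0.12, 0.23 and 0.27 at 24 h, each the best match of its array, and at -0.05, 0.14 and 0.19 at 72 h. The numbers were thus taken as pairing the arrays at 24 h only, and whether they also pair those at 72 h is not known. The replicate block was an alternative, as were the scaling, the filter, the choice of probe sets, the variance model, array weights, the arrays in the fit, the threshold and leaving out each array.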

Additional observations from a re-analysis of the deposited data

Results flagged for a closer look

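For 6 genes the Ota effect differed between 24 h and 72 h by the limma test of the difference itself, among the largest changes in their direction past the threshold. The change of the log2 difference was 3.69 for DDX56, 3.40 for UTP15, 2.38 for NOC3L, 2.32 for GAR1 and 2.25 for IMP3, each of which was lower in Ota cells at 24 h and not called at 72 h. For NHP2 it was -1.95, with a higher value in Ota cells at 24 h and a lower one at 72 h. DDX56 has a further probe set with the opposite call at 24 h, of 1.74, beside -3.52 on the probe set used.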

How the results depend on the processing

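Of 1259 recomputed differences of named genes 1173 kept their direction and their side of the threshold, 71 kept the direction but lost the call and 15 turned, and the cause was not tested. Many of the 1259 could not turn. The variance model, the replicate block and the threshold leave each difference as it was. So does leaving out an array outside the comparison, or fitting only the arrays of the comparison. The 1173 are thus not separate checks of direction. Members higher at 24 h (8) became 20 with centring, 0 with spike-in scaling and 5 at a log2 difference of at least 1, and members lower (19) became 11, 44 and 11. Members higher at 72 h (28) became 2 with spike-in scaling and 15 at a difference of at least 1, and members lower (3) became 10 with spike-in scaling and 5 with array weights. The change of the effect was higher for 18 instead of 33 at an adjusted p under 0.01. It was lower for 2 instead of 1 after quantile normalization, after centring and without Ota replicate 2 of 24 h, and for 0 on the spike-in scale and without shared probe sets, which drop NHP2. In Ota cells over time 23 instead of 38 were higher at a difference of at least 1, and 0 instead of 1 lower without shared probe sets. In control cells over time the 1 higher became 2 (quantile normalization, centring, variance trend), 5 (own arrays only), 8 (array weights) or 0 (spike-in scaling, no filter, no shared probe sets, stricter thresholds), and the 1 lower became 7 (own arrays only), 10 (array weights) or 0 (centring, spike-in scaling, mean over probe sets, no shared probe sets, stricter thresholds).

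Leaving out 1 array gave 7 to 10 higher and 16 to 22 lower at 24 h, 21 to 31 and 3 to 4 at 72 h, 27 to 34 and 1 to 2 in the change, 32 to 41 and 1 in Ota cells over time, and 0 to 5 and 0 to 4 in control cells over time. The sign turned on the spike-in scale at 24 h for RRN3 (-0.33), TAF1D (-0.63), NHP2 (-1.29), DDX10 (-0.22), WDR3 (-0.95), UTP4 (-0.998) and BRIX1 (-0.70), and at 72 h for NCL (-0.16), DDX21 (-0.27) and NOP10 (-0.34). It turned for DDX21 at 24 h with centring (0.0495) and with the mean over probe sets (0.0114), which also turned WDR12 at 24 h (0.25) and UBTF at 72 h (-0.10), and for TSR1 in control cells without shared probe sets (0.0200). Spike-in scaling moved the median of all genes by -1.85 at 24 h and -0.89 at 72 h, centring by 0.56 and 0.28, and quantile normalization by 0.20 and 0.07.

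With the replicate number as a block, 8 members were higher and 20 lower at 24 h, 28 and 3 at 72 h, and 33 and 1 in the change. The block added FBL at 24 h and changed no other member's call there. At 72 h, where the numbers were not taken as pairing the arrays, TAF1D was called (adjusted p = 0.0411) and BMS1 was not (adjusted p = 0.0623). DDX52 was called higher in Ota cells over time (adjusted p = 0.0395, against 0.0526 without the block).

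Values near or under the filter limit of 4 lie close to the median of the whole table (2.94), and sizes of differences that rest on them are uncertain. Examples are values of NOC4L, UTP15, NAT10, EMG1 and EXOSC6 on Ota arrays at 24 h, and of WDR46 on Ota arrays at 72 h.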
